A study of Homo sapiens with 12 samples.

Results

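Genes of the endoplasmic reticulum (ER) chaperones and the unfolded protein response were followed in HK-2, an established line of proximal tubule epithelium from human kidney. The genes came from a fixed list of 46 symbols, and 43 of them were measured, among 10623 genes tested on the same arrays. PDIA5 and SYVN1 had only probe sets annotated to more than 1 gene, and SEC61G was not matched to a probe set in the annotation used here, so none of these 3 has a value below. Each measured gene was read from 1 probe set, a group of short probes that together report 1 transcript. All 43 passed the level filter, a log2 level above 4 on at least 3 of the 12 arrays.

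The 12 arrays formed 4 groups of 3 biological replicates each. Cells received either a compound that the labels call Di or the control vehicle, and RNA was taken after 12 h or 48 h. The chemical identity and the dose of Di are not given in the sources used here. Every group was HK-2 cells seeded 24 h before treatment, treated at about 90% confluence, and kept in a defined medium with 5 mM glucose, epidermal growth factor, hydrocortisone, insulin, transferrin and selenite. The labels call the 3 arrays of a group biological replicates of this single line and do not say how the cultures were kept apart, so p-values measure the spread between these samples. The series' design text sets the work among studies of compounds toxic to the kidney, and the comparisons here ask how these genes changed with time in vehicle, and what Di added at each time.

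Proteins that enter the secretory pathway cross the ER membrane through the SEC61 channel, lose their signal peptide, receive sugars and disulfide bonds and fold with the help of HSPA5 (BiP), HSP90B1 (GRP94), calnexin and calreticulin. When unfolded proteins build up, the sensors IRE1 (gene ERN1), ATF6 and PERK (gene EIF2AK3) are activated. IRE1 splices XBP1 mRNA, ATF6 is cut to release a transcription factor, and PERK slows translation while it favours ATF4. Spliced XBP1 and cut ATF6 raise chaperones, folding enzymes and the genes of ER-associated degradation (ERAD), which returns misfolded proteins to the cytosol for the proteasome. Proximal tubular cells reabsorb large amounts of protein and solute, and ER stress is a known feature of toxic tubular injury. An array reports the amount of mRNA, not splicing of XBP1, cleavage of ATF6 or phosphorylation of PERK.

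The DNA elements through which ATF6 and XBP1 act were looked for in the members' promoters, because the members are known for them. A higher share in members than in all symbols was thus built into the choice of elements and genes. The shares below are a description and not evidence. RefSeq promoters on build GRCh38.p14, each 300 bases long with 250 bases before the transcription start and 50 after it, were found for 43 of the 46 listed genes (not PDIA3, DERL1 or DERL3). The ER stress element (ERSE) was searched on both strands as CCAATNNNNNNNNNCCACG, where N is any base, and the shorter ERSE-II as ATTGGNCCACG. ERSE was found in 8 of the 43 members (18.6%), against 0.0916% of the 27305 gene symbols with a promoter. ERSE-II was found in 3 other members (6.98%), against 0.0696% of all symbols. The XBP1 element TGACGTGG was found in 3 members, DNAJC10, HYOU1 and SSR3 (6.98%, against 0.927% of all symbols), and in HYOU1 it overlapped an ERSE-II. The final 5 bases of ERSE, CCACG, were common in all promoters (76.7% of members and 42.1% of all symbols). Printed first, with the whole 250 bases before the start, are HSPA5, the best known carrier of ERSE, at chr9:125241344-125241593 on the minus strand, and SDF2L1, the member with the largest rise over time, at chr22:21642052-21642301 on the plus strand. Sequences read 5′ to 3′ on the gene's strand, and capitals mark the element.
HSPA5: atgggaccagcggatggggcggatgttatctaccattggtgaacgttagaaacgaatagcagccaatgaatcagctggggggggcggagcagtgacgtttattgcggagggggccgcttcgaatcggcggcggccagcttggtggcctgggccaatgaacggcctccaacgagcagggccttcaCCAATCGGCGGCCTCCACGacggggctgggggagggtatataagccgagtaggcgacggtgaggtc
SDF2L1: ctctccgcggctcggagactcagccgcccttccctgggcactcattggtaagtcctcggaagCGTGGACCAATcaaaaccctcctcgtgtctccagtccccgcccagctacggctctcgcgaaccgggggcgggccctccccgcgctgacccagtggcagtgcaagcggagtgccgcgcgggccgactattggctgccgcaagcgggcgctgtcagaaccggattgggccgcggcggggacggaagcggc

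The other matches are shown with 5 bases on each side, so that the constant ends and the variable middle of the element can be compared between genes. Where the element lies on the opposite strand it appears here as its reverse complement, which starts with CGTGG. HSP90B1 and HYOU1 each held a pair of elements.
HSP90B1, chr12:103930211-103930239, plus: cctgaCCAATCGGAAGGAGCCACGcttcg
HSP90B1, chr12:103930316-103930344, plus: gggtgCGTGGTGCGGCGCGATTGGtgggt
CALR, chr19:12938379-12938407, plus: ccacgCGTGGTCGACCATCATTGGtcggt
CANX, chr5:179698773-179698801, plus: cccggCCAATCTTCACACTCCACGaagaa
PDIA6, chr2:10812848-10812876, minus: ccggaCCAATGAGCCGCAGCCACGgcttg
XBP1, chr22:28800598-28800626, minus: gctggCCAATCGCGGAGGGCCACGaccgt
CRELD2, chr22:49918549-49918577, plus: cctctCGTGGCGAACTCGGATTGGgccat
ERO1B, chr1:236282178-236282206, minus: gcccgCGTGGTCCCGCCTCATTGGccgcc
HERPUD1, chr16:56932020-56932040, plus: cgccgATTGGGCCACGttggg
HYOU1, chr11:119057269-119057289, minus: tgggaCGTGGTCCAATgagta
HYOU1, chr11:119057375-119057395, minus: cgtgaCGTGGTCCAATcccag

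In HSPA5 the element began 66 bases before the start, in XBP1 52 bases and in PDIA6 86 bases before it. CALR and ERO1B held theirs farther out, at 225 and 243 bases before the start. The CANX element has 3 positions because the RefSeq table lists 3 starts for that gene. A match is only a run of letters, and a promoter without one was not read as lacking a site. The 11 measured members with ERSE or ERSE-II rose between 0.74 and 4.07 (log2) from 12 h to 48 h in vehicle, with a median of 1.95. The 29 measured members whose promoters held neither ranged from 0.01 to 3.24, with a median of 0.99. These medians are descriptions of overlapping ranges, and no test was made of their difference.

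**Figure D1:**
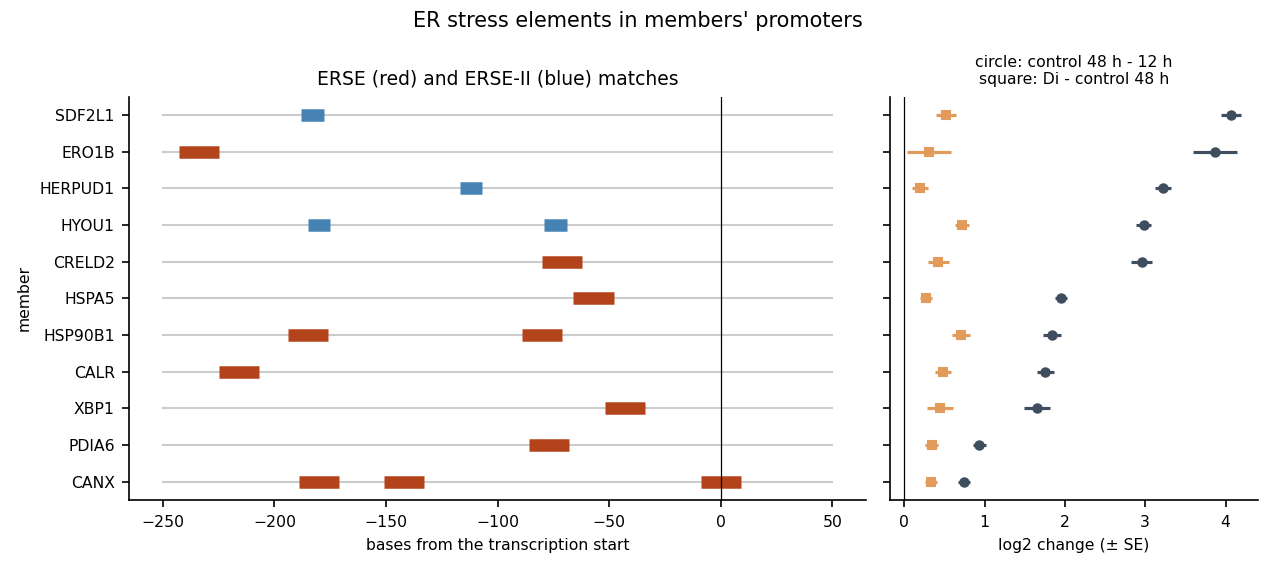
Left, positions of ERSE (red) and ERSE-II (blue) matches in the promoters of 11 members, in bases from the transcription start (0); CANX has 3 annotated starts. Right, log2 change ± SE of the same genes in vehicle from 12 h to 48 h (circles) and for Di against vehicle at 48 h (squares); the circles run from 0.74 (CANX) to 4.07 (SDF2L1).

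Levels below are the deposited log2 values, so a difference of 1 is a doubling of signal, and levels of different genes are not compared because probe sets differ in their response. Changes are given as log2 differences ± their standard error (SE) from 1 linear model over all 12 arrays (limma), with p-values adjusted over all 10623 genes, and a gene is called at an adjusted p under 0.05. Array medians lay between 2.97 and 3.06, and replicates of a group correlated at 0.995 to 0.998. The second Di replicate at 12 h stood apart from its group, with a root mean square deviation of 0.252 against 0.111 to 0.182 for the other 11 arrays, so 12 h results are also given without it. RNA integrity was read from actin, as the gap between its 3′ and 5′ controls, which was 1.71 ± 0.178 (SD, n = 3) in the 12 h controls, 1.22 ± 0.239 after 12 h of Di, 1.33 ± 0.128 in the 48 h controls and 1.41 ± 0.0776 after 48 h of Di. It was thus smaller in the 12 h Di cells and in the 48 h controls than in the 12 h controls (exact two-sided permutation p = 0.1 for each, the smallest that 3 against 3 arrays allow). The same gap for GAPDH was 0.126 ± 0.0841, 0.0518 ± 0.0994, 0.000125 ± 0.0206 and -0.034 ± 0.0396 in the same order, with a Di difference of -0.074 at 12 h (exact permutation p = 0.3) where actin gave -0.491, and a control difference over time of -0.126 (exact permutation p = 0.1). All 5 epithelial markers were measured, and their summed log2 level ranged over 53.9 to 54.5 in the 12 h controls, 53.2 to 54.3 after 12 h of Di, 55.1 to 55.5 in the 48 h controls and 51.8 to 52.8 after 48 h of Di. With Di at 48 h, CDH1 (-1.33), KRT19 (-1.19) and EPCAM (-0.65) were called lower, KRT18 higher (0.20), and KRT8 was not called (0.13). By contrast, none of 10 proximal tubule markers (LRP2, CUBN and AQP1 among them), 4 endothelial or 4 leukocyte markers passed the filter or had a probe set of its own. Among 5 markers of other nephron segments only AQP2 was measured, at 4.89 to 5.37 over the arrays, and it was not called. All 3 kidney injury markers were measured. HAVCR1 was called higher with Di at 12 h (1.15) and lower at 48 h (-1.55), LCN2 higher at 48 h (1.80), and VIM was not called for Di. Of 5 fibroblast genes, COL1A1, LUM and DCN were measured, and the fibroblast summed log2 level ranged over 28.0 to 28.4 in the 12 h controls, 26.8 to 28.4 after 12 h of Di, 24.9 to 25.4 in the 48 h controls and 22.4 to 23.8 after 48 h of Di. The part of RNA integrity, of the epithelial markers or of these other genes in the results below was not tested. In bulk RNA, fewer cells of a kind and less RNA per cell cannot be told apart.

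In vehicle alone, 41 of the 43 members rose between 12 h and 48 h and none fell, whereas 21.9% of all genes tested rose and 31% fell (52.9% in either direction). The exceptions were P4HB and ERO1A, whose other probe sets were called higher. The median change of the members was 1.10, against -0.06 over all genes, and the 48 h arrays lay wholly above the 12 h arrays for 41 members and wholly below for none (27.7% and 37.5% of all genes). Di added little at 12 h, when 4 members rose, none fell and the median was 0.01 (3.9% of all genes rose and 9.8% fell, 13.7% in all). At 48 h, Di-treated cells were higher than vehicle in 26 members, lower in 2 and not called in 15, with a median of 0.34 against -0.02 over all genes (22.9% of all genes rose and 28% fell, 50.9% in all). All 3 comparisons of a pair of groups share arrays with another, so their results are given side by side and not as independent evidence.

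**Figure D2:**
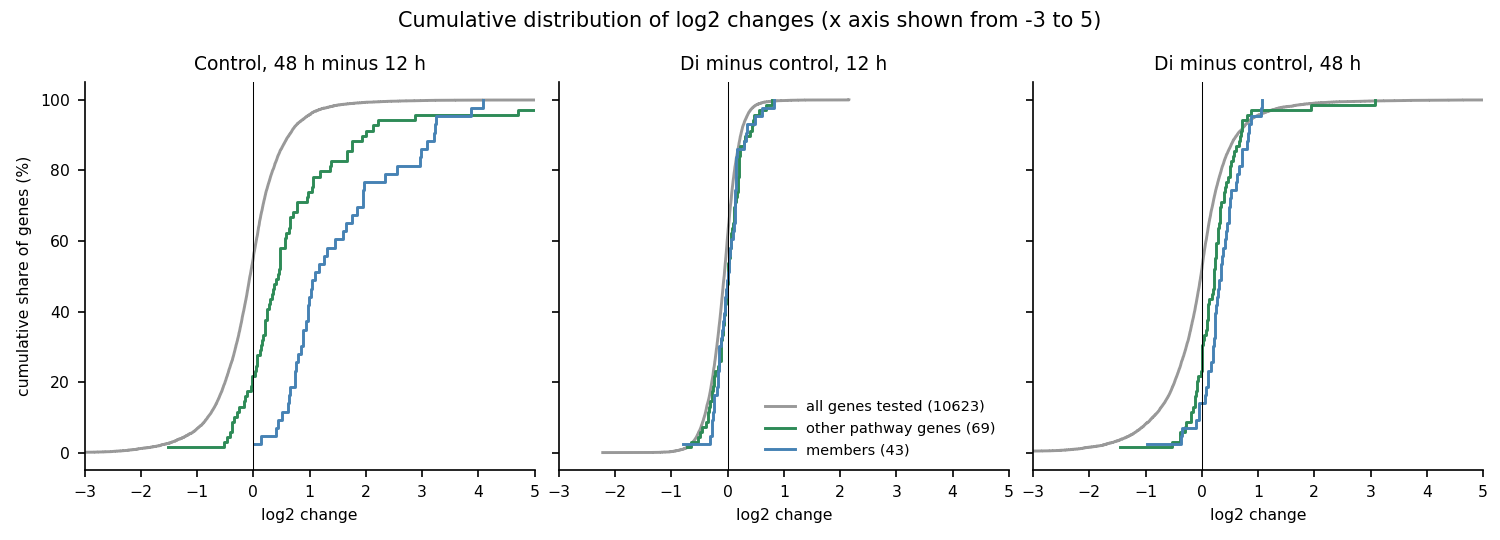
Cumulative share of genes (y axis, %) at or below each log2 change (x axis) for all 10623 genes tested, the 69 other genes of the pathway and the 43 members, in the 3 comparisons. The members' curve lies to the right of that of all genes in vehicle over time (medians 1.10 and -0.06) and less so for Di at 48 h (0.34 and -0.02), while at 12 h the curves lie close together.

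**Figure D3:**
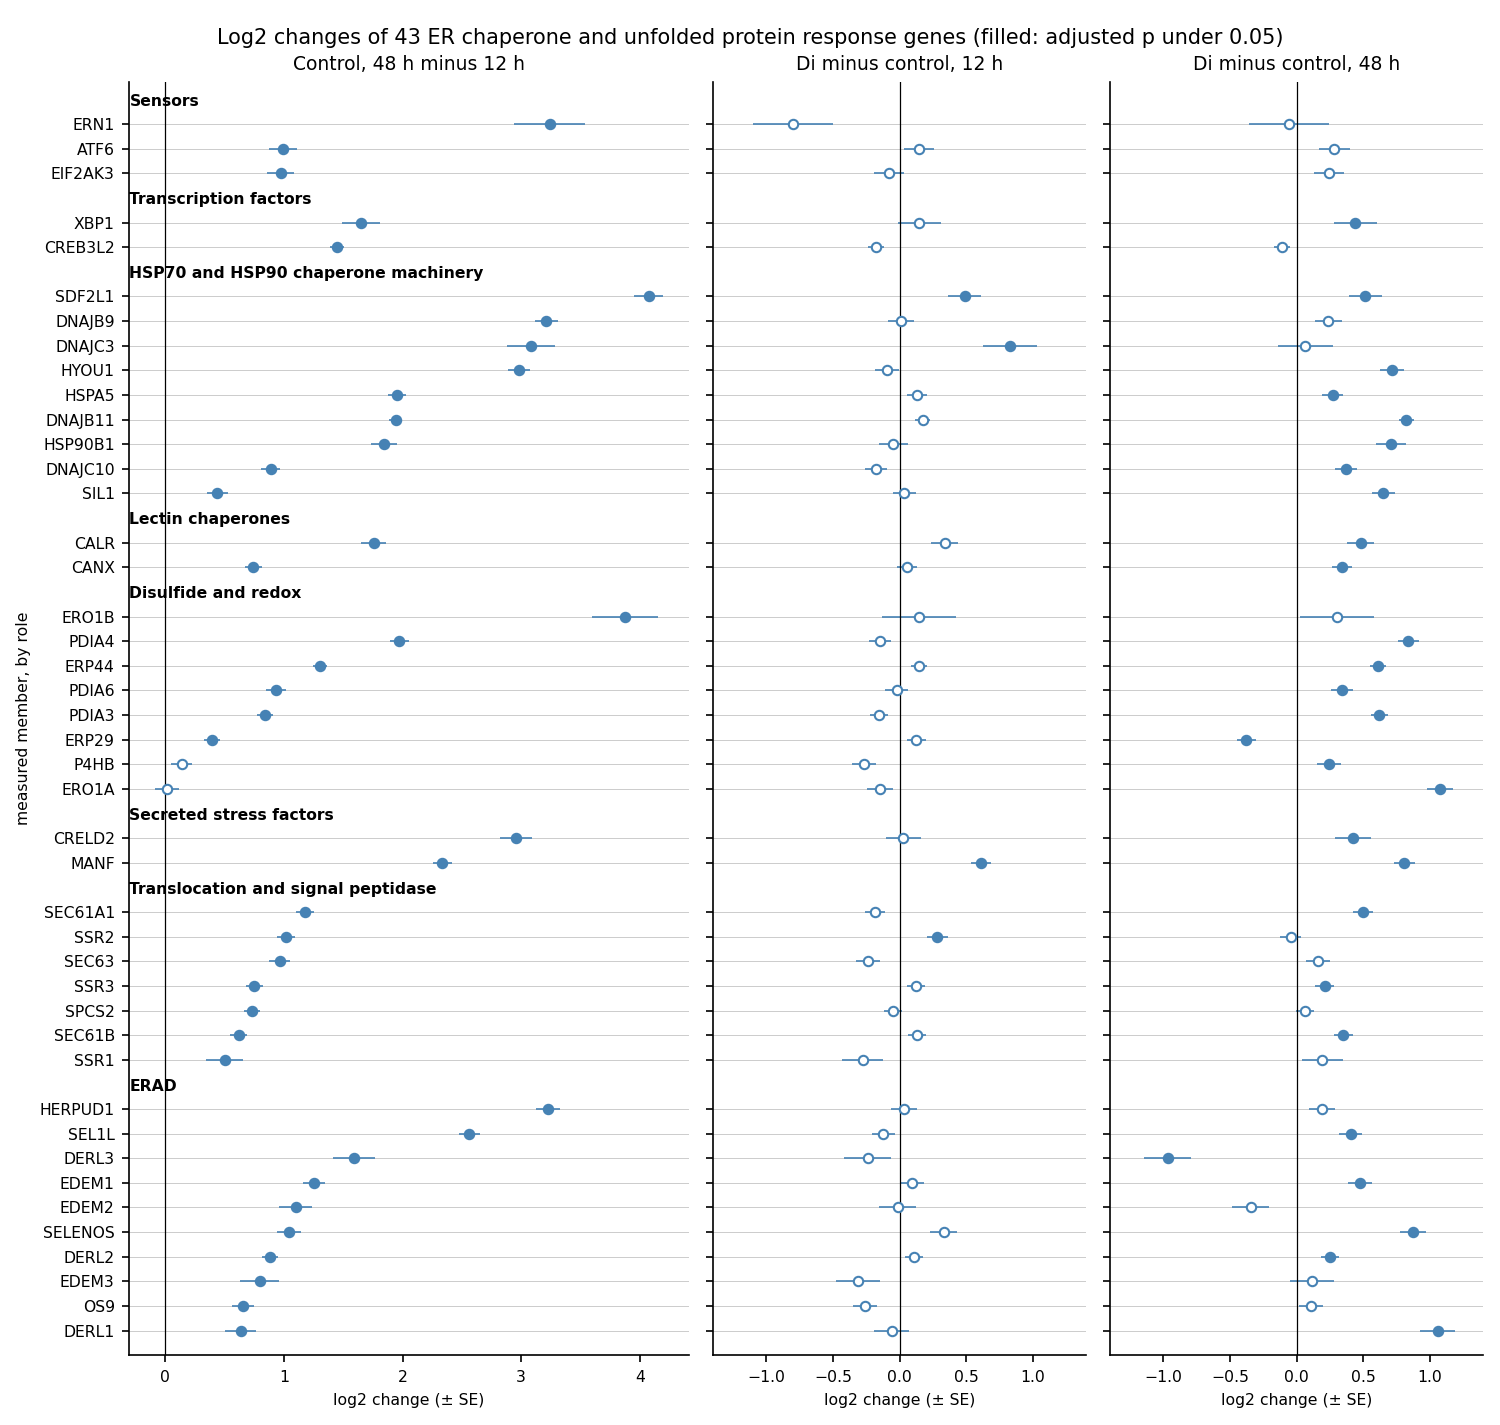
Log2 change ± SE (x axis) of each of the 43 measured members (y axis, grouped by role and ordered by their change in vehicle), from limma over 12 arrays; filled points have an adjusted p under 0.05. In vehicle 41 points are filled, all to the right of 0; for Di, 4 are filled at 12 h and 28 at 48 h, and the x axis of the first panel spans a wider range.

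The sensors rose with time in vehicle and none was called for Di at either time in the model over all 12 arrays, on the probe sets used. ERN1, which encodes IRE1 (227755_at), stood at 6.55, 6.48 and 6.56 in the 12 h controls and 9.79, 9.87 and 9.64 in the 48 h controls, with 6.34, 4.77 and 6.07 after 12 h of Di and 9.66, 9.70 and 9.76 after 48 h of Di. The 48 h arrays were all far above the 12 h arrays, and at 12 h the Di arrays lay below the controls, the second replicate by most. Vehicle ERN1 rose by 3.24 ± 0.30, or 9.43-fold (adjusted p = 5.30e-06), rank 13 of 10623 genes ordered by this change. The 12 h Di difference of -0.80 ± 0.30 did not pass (adjusted p = 0.0993); without the second Di replicate it was -0.32 (adjusted p = 0.0494), and without the first it was -1.11 (adjusted p = 0.0326). At 48 h the groups overlapped, with a difference of -0.06 ± 0.30 (adjusted p = 0.895).

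ATF6, the sensor that is itself a precursor of a transcription factor (203952_at), stood at 7.77, 7.95 and 7.87 in the 12 h controls, 7.89, 7.92 and 8.22 after 12 h of Di, 8.81, 8.83 and 8.94 in the 48 h controls and 9.35, 8.94 and 9.13 after 48 h of Di. It rose by 0.99 ± 0.12 in vehicle (adjusted p = 3.08e-05), and the Di and control arrays overlapped at both times (0.15 ± 0.12 at 12 h, 0.28 ± 0.12 at 48 h, adjusted p = 0.435 and 0.0626). Another ATF6 probe set, 226941_at, was called lower with Di at 12 h (-0.34, limma over probe sets, adjusted p = 0.0194) and gave 0.00 at 48 h. EIF2AK3, the PERK kinase (218696_at), stood at 9.21, 9.18 and 9.18 in the 12 h controls, 9.27, 8.82 and 9.25 after 12 h of Di, 10.15, 10.23 and 10.11 in the 48 h controls and 10.29, 10.45 and 10.47 after 48 h of Di. All 48 h Di arrays of EIF2AK3 were above the 48 h controls, yet the difference of 0.24 ± 0.11 was not called (adjusted p = 0.0911). Its rise in vehicle was 0.97 ± 0.11 (adjusted p = 2.49e-05).

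Of the transcription factors, XBP1, whose mRNA is the substrate of IRE1 and a target of ATF6 (200670_at), stood at 8.48, 8.40 and 8.36 in the 12 h controls, 8.76, 8.15 and 8.78 after 12 h of Di, 10.08, 10.30 and 9.82 in the 48 h controls and 10.48, 10.48 and 10.56 after 48 h of Di. The 48 h values were higher than every 12 h value, and at 48 h each Di array was above each control. XBP1 rose by 1.65 ± 0.16 with time in vehicle (adjusted p = 7.64e-06) and by 0.44 ± 0.16 with Di at 48 h (adjusted p = 0.0387). The Di call was lost on averaging XBP1 with its other probe set, whose level lies near the filter (0.15, adjusted p = 0.345), without the level filter (adjusted p = 0.0909), on centring the arrays on their medians (0.41, adjusted p = 0.0794) and on leaving out any of 8 arrays (0.32 to 0.46, adjusted p = 0.0508 to 0.149): each 12 h control, the first or the third 48 h control, or each 48 h Di array. Adding replicate number to the model ended the call as well (limma, adjusted p = 0.0623). CREB3L2, a membrane-bound factor activated by proteolysis like ATF6, rose by 1.45 ± 0.06 in vehicle and was not called for Di (-0.18 at 12 h and -0.11 at 48 h). Its Di arrays lay below the controls at both times.

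All 9 members of the HSP70 and HSP90 machinery rose in vehicle (median 1.95) and 7 of 9 rose further with Di at 48 h (median 0.52). Among all genes, 21.9% rose in vehicle and 22.9% with Di at 48 h. HSPA5, the HSP70 of the ER lumen and a partner that keeps the sensors inactive (211936_at), stood at 13.03, 13.18 and 13.20 in the 12 h controls, 13.22, 13.24 and 13.35 after 12 h of Di, 15.10, 15.15 and 15.02 in the 48 h controls and 15.26, 15.39 and 15.42 after 48 h of Di. Time in vehicle raised it by 1.95 ± 0.08 (3.87-fold, adjusted p = 9.50e-09). Di arrays were above controls at both times, but only the 48 h difference was called (0.27 ± 0.08, adjusted p = 0.0116; 0.13 ± 0.08 at 12 h, adjusted p = 0.274), and the difference between these 2 Di effects was not (0.14 ± 0.11, adjusted p = 0.346). A second HSPA5 probe set rose by 3.89 in vehicle and was called higher with Di at both times (limma over probe sets, 0.27 at 12 h, adjusted p = 0.0245; 0.21 at 48 h, adjusted p = 0.026).

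HSP90B1, the HSP90 of the ER, was read from a probe set whose probes can also match other transcripts (216449_x_at). It stood at 11.53, 11.22 and 11.72 in the 12 h controls, 11.36, 11.58 and 11.38 after 12 h of Di, 13.31, 13.32 and 13.36 in the 48 h controls and 14.01, 14.07 and 14.04 after 48 h of Di. The 12 h groups overlapped and the 48 h groups did not. It rose by 1.84 ± 0.11 in vehicle (adjusted p = 1.88e-07) and by 0.71 ± 0.11 with Di at 48 h (adjusted p = 0.000259).

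SDF2L1, a component of the HSPA5 chaperone complex (218681_s_at), stood at 7.12, 6.60 and 7.06 in the 12 h controls, 7.37, 7.33 and 7.55 after 12 h of Di, 11.02, 10.91 and 11.07 in the 48 h controls and 11.52, 11.47 and 11.55 after 48 h of Di. It had the largest rise of the members in vehicle, 4.07 ± 0.12 or 16.8-fold (adjusted p = 1.61e-09), rank 7 of all genes. Di arrays lay above controls at both times, by 0.49 ± 0.12 at 12 h (adjusted p = 0.0262) and 0.52 ± 0.12 at 48 h (adjusted p = 0.00469). The 12 h call was lost without the second control replicate, the lowest array (0.32, adjusted p = 0.0555), or without the third Di replicate (0.42, adjusted p = 0.0847). It was also lost without the level filter (limma, adjusted p = 0.0524) and in a fit of the 12 h arrays alone (0.109).

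HSPA5 works with J-domain proteins, which deliver substrates, and with exchange factors, which release them. DNAJB9 (ERdj4), a J protein that also represses IRE1 (202842_s_at), stood at 8.86, 8.73 and 8.72 in the 12 h controls, 8.77, 8.59 and 8.97 after 12 h of Di, 11.92, 12.10 and 11.92 in the 48 h controls and 12.14, 12.26 and 12.26 after 48 h of Di. Its level differed mainly by time, with a rise in vehicle of 3.21 ± 0.10 (9.26-fold, adjusted p = 1.61e-09, rank 16). The 48 h Di arrays were above the controls by 0.24 ± 0.10, which was not called (adjusted p = 0.0616). Both other DNAJB9 probe sets were called higher with Di at 48 h (0.42 and 0.44, limma over probe sets, adjusted p = 0.0412 and 0.00203), as was the average of its sets (0.37, adjusted p = 0.0113). DNAJB11 (ERdj3), which binds unfolded substrates directly (223054_at), stood at 10.73, 10.76 and 10.73 in the 12 h controls, 10.92, 10.91 and 10.91 after 12 h of Di, 12.66, 12.70 and 12.70 in the 48 h controls and 13.56, 13.49 and 13.47 after 48 h of Di. Its groups were tight and did not overlap at either time. DNAJB11 rose by 1.94 ± 0.06 in vehicle (adjusted p = 1.17e-09) and by 0.82 ± 0.06 with Di at 48 h (adjusted p = 3.25e-07), while its 12 h difference of 0.17 ± 0.06 was not called (adjusted p = 0.0593).

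DNAJC3 (P58IPK), a co-chaperone that also restrains PERK (1558080_s_at), stood at 7.77, 8.23 and 8.15 in the 12 h controls, 8.97, 8.45 and 9.22 after 12 h of Di, 11.04, 11.39 and 10.96 in the 48 h controls and 10.97, 11.43 and 11.20 after 48 h of Di. It was the member with the largest 12 h rise with Di, 0.83 ± 0.20 or 1.78-fold (adjusted p = 0.0232), and its groups overlapped at 48 h (0.07 ± 0.20, adjusted p = 0.818). The 12 h call was lost without the first control (0.69, adjusted p = 0.0764), the third control (0.88, 0.0545), the first Di (0.78, 0.0599) or the third Di replicate (0.66, 0.0747). Without the level filter (limma, adjusted p = 0.0573) and with the 12 h arrays alone (0.0763) it was lost too. Its probe sets disagreed at 12 h: 235341_at gave 1.65, 208499_s_at 0.60 and 225284_at -0.32. All of them rose in vehicle, by 1.91 to 4.10.

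HYOU1 (GRP170), an exchange factor for HSPA5 (200825_s_at), stood at 8.00, 8.11 and 7.89 in the 12 h controls, 7.80, 8.06 and 7.86 after 12 h of Di, 11.03, 11.05 and 10.87 in the 48 h controls and 11.74, 11.59 and 11.77 after 48 h of Di. The 12 h groups overlapped, and at 48 h every Di array was above every control. It rose by 2.98 ± 0.09 in vehicle (7.9-fold, adjusted p = 1.69e-09) and by 0.72 ± 0.09 with Di at 48 h (adjusted p = 5.93e-05). SIL1, another exchange factor, rose less in vehicle (0.44 ± 0.09) than with Di at 48 h (0.65 ± 0.09, adjusted p = 7.24e-05). DNAJC10 (ERdj5), a J protein that reduces disulfides of ERAD substrates, rose by 0.89 in vehicle and by 0.37 with Di at 48 h. Its probe sets 221782_at and 221781_s_at were called higher in vehicle (1.28 and 1.41) and with Di at 48 h (0.78 and 0.73). A further set, 229588_at, gave 0.66 in vehicle and 0.01 with Di, neither called.

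**Figure D4:**
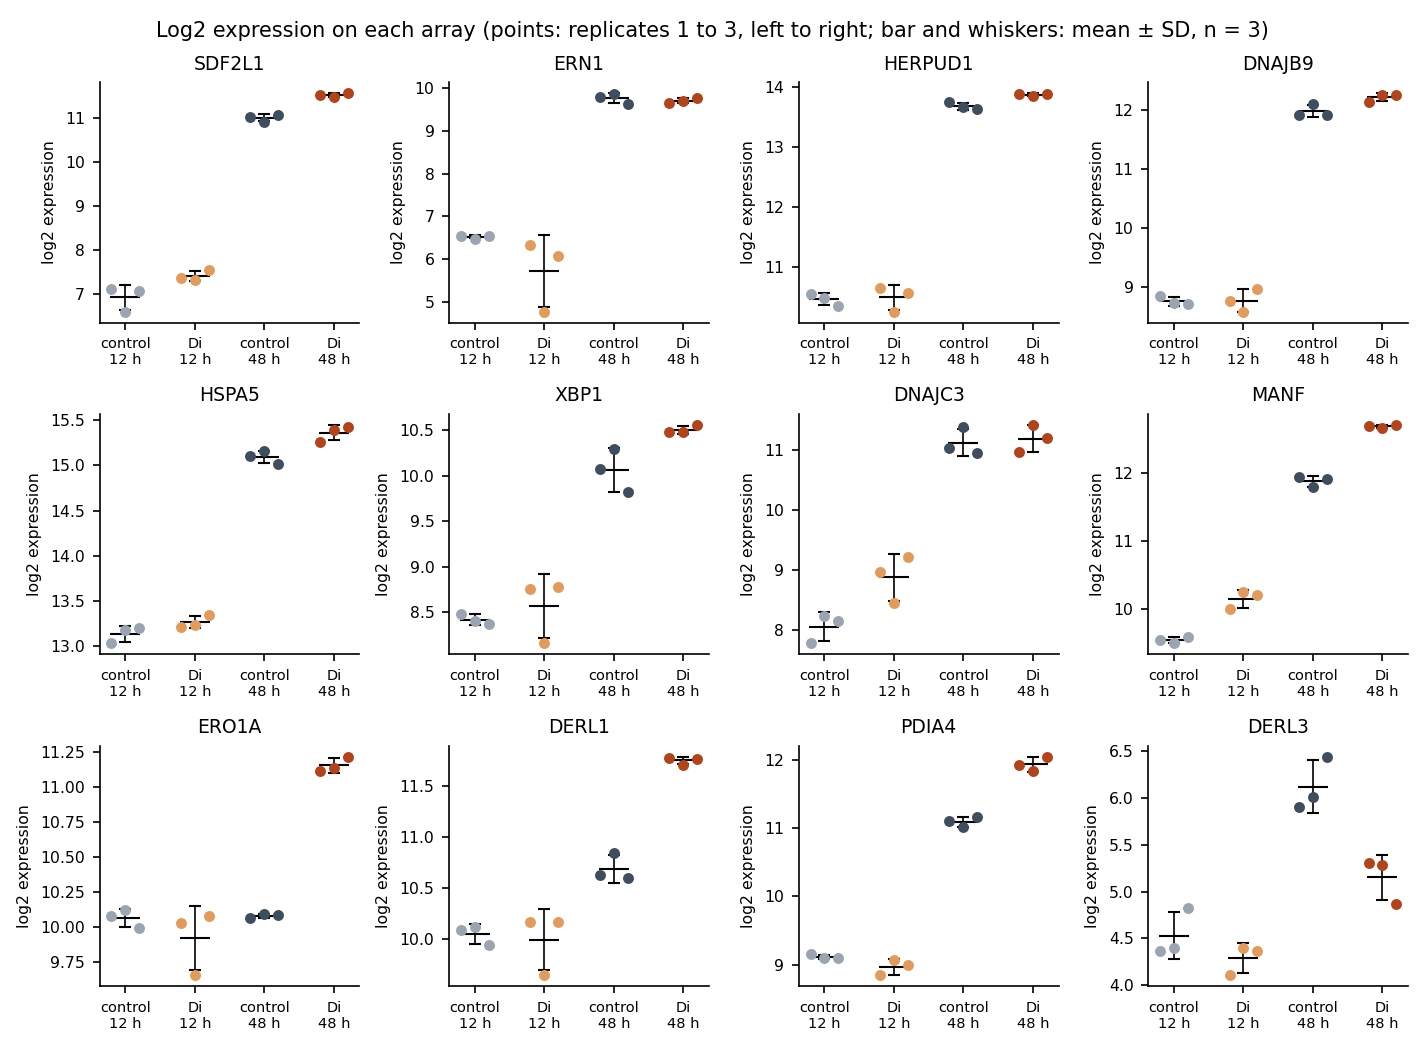
Log2 expression (y axis; ranges differ between panels and do not start at 0) of 12 members on each array, with the mean ± SD of each group of 3. SDF2L1, ERN1, HERPUD1, DNAJB9, HSPA5, XBP1 and DNAJC3 are separated mainly by time, ERO1A is high only after 48 h of Di, and DERL3 is highest in the 48 h controls.

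The lectin chaperones, which hold glycoproteins in the ER until they fold, rose in vehicle and with Di at 48 h. Calreticulin (CALR) rose by 1.76 ± 0.10 in vehicle and 0.48 ± 0.10 with Di at 48 h (adjusted p = 0.00218). The membrane-bound calnexin (CANX) rose by 0.74 ± 0.07 and 0.34 ± 0.07 (adjusted p = 0.00291). At 12 h neither was called (0.34 and 0.06). For CALR, 2 further probe sets that can match other transcripts gave 48 h Di differences of 0.19 and 0.09, which were not called.

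Of the 8 measured disulfide and redox genes, 6 rose in vehicle (median 0.89) and at 48 h 6 rose and 1 fell with Di (median 0.48). The shares of all genes were 21.9% higher in vehicle, and 22.9% higher and 28% lower with Di at 48 h. ERO1A, an oxidase that recharges protein disulfide isomerases (222646_s_at), stood at 10.08, 10.12 and 10.00 in the 12 h controls, 10.02, 9.65 and 10.08 after 12 h of Di, 10.06, 10.09 and 10.08 in the 48 h controls and 11.11, 11.13 and 11.22 after 48 h of Di. On this probe set the controls of both times coincided and only the 48 h Di arrays stood higher. The Di difference at 48 h was 1.08 ± 0.10, or 2.11-fold (adjusted p = 4.60e-06), and the vehicle change 0.01 ± 0.10 (adjusted p = 0.921). The other ERO1A probe sets differed: 218498_s_at gave 0.56 with Di at 48 h and 0.99 in vehicle, and 225750_at gave -0.08 and 0.38. The pattern of ERO1A therefore holds for 1 of its 3 probe sets.

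ERO1B, the related oxidase (231944_at), stood at 4.60, 3.74 and 4.81 in the 12 h controls, 4.24, 4.24 and 5.11 after 12 h of Di, 8.42, 8.14 and 8.20 in the 48 h controls and 8.44, 8.61 and 8.63 after 48 h of Di. Its 12 h values lay near the filter level of 4, with 1 control array under it, and all 48 h values were far above. Vehicle time raised ERO1B by 3.87 ± 0.28 (14.6-fold, adjusted p = 7.06e-07, rank 8), a size that depends on values near the filter level. Di at 48 h was not called (0.31 ± 0.28, adjusted p = 0.391), whereas its other probe set gave 1.50 (adjusted p = 0.000703 over probe sets).

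PDIA4 (ERp72), a disulfide isomerase (208658_at), stood at 9.15, 9.10 and 9.10 in the 12 h controls, 8.85, 9.08 and 8.99 after 12 h of Di, 11.11, 11.01 and 11.16 in the 48 h controls and 11.92, 11.83 and 12.04 after 48 h of Di. It was slightly lower with Di at 12 h without being called (-0.15 ± 0.08, adjusted p = 0.242) and higher at 48 h by 0.84 ± 0.08 (adjusted p = 5.63e-06). Its vehicle rise was 1.97 ± 0.08 (adjusted p = 1.26e-08). The isomerases PDIA3 (ERp57) and PDIA6 rose by 0.84 and 0.93 in vehicle and by 0.62 and 0.34 with Di at 48 h. ERP44, which retains ERO1 oxidases in the early secretory pathway, rose by 1.30 and 0.61, although its probe set 208958_at gave -0.99 with Di at 48 h. The classical protein disulfide isomerase, P4HB, was not called in vehicle on the probe set used (0.14 ± 0.09, adjusted p = 0.213), whereas its other sets were called higher (0.30 and 1.16, limma over probe sets, adjusted p = 0.0134 and 4.00e-06). P4HB rose by 0.24 ± 0.09 with Di at 48 h (adjusted p = 0.042). That call was lost without any of 7 arrays: each 48 h control, the first or the third Di at 48 h, or the third Di or the third control at 12 h (0.21 to 0.25, adjusted p = 0.0519 to 0.12). It was also lost with quantile normalisation (adjusted p = 0.0743), centring on array medians (0.0507) or on the tested genes (0.0536), without the level filter (0.0573), and with replicate number added to the model (0.0621). The other P4HB probe sets were called higher with Di at 48 h, by 0.40 and 0.48, and 200656_s_at was called lower at 12 h (-0.54).

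ERP29, an isomerase-like protein without the active-site cysteine pair (201216_at), went the other way with Di. It stood at 11.18, 11.12 and 11.14 in the 12 h controls, 11.25, 11.34 and 11.22 after 12 h of Di, 11.56, 11.58 and 11.49 in the 48 h controls and 11.28, 11.07 and 11.15 after 48 h of Di. All 48 h Di arrays were below the 48 h controls and close to the 12 h arrays. ERP29 rose by 0.40 ± 0.07 in vehicle (adjusted p = 0.000598) and was lower with Di at 48 h by -0.38 ± 0.07 (adjusted p = 0.000828).

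MANF and CRELD2, small proteins secreted during ER stress, rose in vehicle and with Di at 48 h. MANF (202655_at) stood at 9.54, 9.49 and 9.59 in the 12 h controls, 10.00, 10.25 and 10.20 after 12 h of Di, 11.93, 11.79 and 11.90 in the 48 h controls and 12.69, 12.66 and 12.70 after 48 h of Di. The 4 groups did not overlap. MANF rose with Di by 0.61 ± 0.08 at 12 h (adjusted p = 0.00132) and 0.81 ± 0.08 at 48 h (adjusted p = 5.52e-06), and by 2.34 ± 0.08 in vehicle. Its 12 h call was the only one of the 4 that held with each array left out in turn and in every other setting tried. CRELD2 rose by 2.95 ± 0.13 in vehicle, was 0.03 with Di at 12 h and rose by 0.42 ± 0.13 with Di at 48 h (adjusted p = 0.0195). The CRELD2 call with Di was lost without the first control (adjusted p = 0.0534), the second control (0.0790) or the first Di replicate (0.0697) at 48 h.

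The 7 measured genes of translocation and signal peptide removal all rose in vehicle, with a median of 0.75, the lowest of the role groups (21.9% of all genes rose). With Di at 48 h, 3 of the 7 rose, against 22.9% of all genes. SEC61A1, the pore of the channel, rose by 1.17 ± 0.08 in vehicle and 0.50 ± 0.08 with Di at 48 h (adjusted p = 0.000225). SEC61B, its small subunit, rose by 0.62 and 0.35. SSR3, of the translocon-associated complex, rose by 0.75 and 0.21 on the probe set used, but its other sets gave between -1.23 and -0.18 with Di at 48 h. The SSR3 call with Di was lost without any 48 h array but the second control (0.18 to 0.22, adjusted p = 0.0534 to 0.0913). It was also lost with quantile normalisation (0.15, adjusted p = 0.0994) and on centring the arrays on their medians (0.18, adjusted p = 0.0744). SSR2, of the same complex (200652_at), stood at 10.81, 10.65 and 10.64 in the 12 h controls, 10.88, 11.00 and 11.08 after 12 h of Di, 11.72, 11.64 and 11.80 in the 48 h controls and 11.69, 11.68 and 11.66 after 48 h of Di. Its Di arrays were above controls at 12 h (0.29 ± 0.08, adjusted p = 0.034) and among them at 48 h (-0.04 ± 0.08, adjusted p = 0.668). The 12 h call was lost without the second Di replicate, which stood apart (0.28, adjusted p = 0.0618), and without any of 5 others: the third Di, the second control or the third control at 12 h, and the second Di or the first control at 48 h (adjusted p = 0.0510 to 0.113 over the 6). It was also lost with the 12 h arrays alone (limma, adjusted p = 0.110) and with replicate number added to the model (0.0695). SEC63, a J protein of the channel, SSR1 and the signal peptidase subunit SPCS2 rose in vehicle by 0.96, 0.50 and 0.73, and with Di at 48 h they gave 0.16, 0.19 and 0.06, none called on the probe sets used. Other sets of these genes were called at 48 h. Those of SSR1 gave 0.76, 0.42, 0.40 and 0.44, all higher, with 1 further set not called (0.14), and averaging its sets gave 0.39 (limma, adjusted p = 0.000222). The other SPCS2 set gave 0.25 (limma over probe sets, adjusted p = 0.0223), and sets of SEC63 were called in both directions (0.25 and -0.996). The SSR1 vehicle call was lost without the third control replicate at 12 h (0.45, adjusted p = 0.0590) or the first at 48 h (0.47, adjusted p = 0.0529).

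All 10 measured ERAD genes rose in vehicle (median 1.07, with 21.9% of all genes higher). With Di at 48 h 5 rose and 1 fell (median 0.22, with 22.9% of all genes higher and 28% lower). HERPUD1, which organises the HRD1 ubiquitin ligase complex (217168_s_at), stood at 10.55, 10.49 and 10.35 in the 12 h controls, 10.65, 10.26 and 10.58 after 12 h of Di, 13.75, 13.68 and 13.64 in the 48 h controls and 13.90, 13.85 and 13.89 after 48 h of Di. It rose by 3.22 ± 0.10 in vehicle (9.34-fold, adjusted p = 1.65e-09, rank 14), and at 48 h Di arrays were above controls by 0.19 ± 0.10, which was not called (adjusted p = 0.133). SEL1L, the scaffold of the same complex, rose by 2.56 ± 0.09 in vehicle (rank 39) and 0.41 ± 0.09 with Di at 48 h (adjusted p = 0.00231).

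DERL1, a channel-forming derlin (222543_at), stood at 10.09, 10.12 and 9.94 in the 12 h controls, 10.16, 9.65 and 10.16 after 12 h of Di, 10.62, 10.84 and 10.59 in the 48 h controls and 11.77, 11.70 and 11.76 after 48 h of Di. The 48 h Di arrays were about a unit above the 48 h controls and further above both 12 h groups. DERL1 rose with Di at 48 h by 1.06 ± 0.13, or 2.09-fold (adjusted p = 4.28e-05), and its 2 other probe sets gave 1.21 and 1.18. Its vehicle rise was 0.64 ± 0.13 (adjusted p = 0.00174). SELENOS, a selenoprotein that links derlins to the ATPase VCP (223209_s_at), stood at 9.47, 9.40 and 9.46 in the 12 h controls, 9.60, 9.99 and 9.73 after 12 h of Di, 10.41, 10.45 and 10.60 in the 48 h controls and 11.46, 11.34 and 11.27 after 48 h of Di. Its groups did not overlap at either time. The rise with Di was 0.87 ± 0.10 at 48 h (adjusted p = 2.38e-05), and the 12 h difference of 0.33 ± 0.10 lay just outside the threshold (adjusted p = 0.0501).

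DERL3 (228897_at) was the member that fell most with Di. It stood at 4.37, 4.40 and 4.82 in the 12 h controls, 4.11, 4.40 and 4.37 after 12 h of Di, 5.91, 6.00 and 6.44 in the 48 h controls and 5.30, 5.28 and 4.87 after 48 h of Di. The 48 h Di arrays were below the 48 h controls and above the 12 h arrays. It rose by 1.59 ± 0.18 in vehicle (adjusted p = 1.96e-05) and was lower with Di at 48 h by -0.97 ± 0.18 (adjusted p = 0.000748), at levels not far above the filter, and a further probe set that can match other transcripts gave -0.07. DERL2 rose by 0.88 in vehicle and 0.25 with Di at 48 h, but its other probe set gave -1.17 with Di. Among the mannosidase-like EDEM proteins, which mark glycoproteins for disposal, EDEM1 rose by 1.25 in vehicle and 0.48 with Di at 48 h. EDEM2 and EDEM3 rose by 1.10 and 0.80 in vehicle and were not called for Di at 48 h (-0.35 and 0.11). All 48 h Di arrays of EDEM2 were below the controls (limma, adjusted p = 0.0559). It was called lower with a level filter of 6 (0.0464), on centring on array medians (0.0427), with trended and robust moderation (0.0488) and with the 48 h arrays alone (0.0168). The EDEM3 set 220926_s_at gave 0.39 with Di at 48 h (adjusted p = 0.0289 over probe sets). OS9, a lectin that delivers such proteins to SEL1L, rose by 0.66 in vehicle and was not called for Di at 48 h (0.11).

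At 12 h the 4 members higher with Di were DNAJC3, MANF, SDF2L1 and SSR2, from 3 roles, and the arrays did not overlap for 10 members in the upward and 8 in the downward direction (11.1% and 23.7% of all genes). Without the second Di replicate, which stood apart, 4 members were higher and 2 lower, with CALR called in place of SSR2 and with ERN1 (-0.32) and P4HB (-0.35) called lower. In that fit 1323 of 10623 genes were called, 34.5% of them higher. The share of all called genes that were higher at 12 h was 28.5% (of 1455), and 54.4% (of 1354) when arrays were centred on the median of the tested genes. With that centring 6 members were called higher and none lower at 12 h, and at 48 h ATF6 (0.33, adjusted p = 0.0444), EIF2AK3 (0.28, 0.0146), DNAJB9 (0.28, 0.0119) and HERPUD1 (0.23, 0.0344) were also called higher with Di. Leaving out the third Di replicate at 12 h left 1 member higher, and leaving out the second or the third 12 h control left 2. The genes called in either direction fell too, to 971, 745 and 784 in these fits. At 48 h the arrays did not overlap for 31 members upward and 4 downward (28.6% and 33% of all genes).

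Whether the Di effect differed between the times was tested directly, as the 48 h effect minus the 12 h effect. It was larger at 48 h for 18 members and smaller for 3 (19.7% and 18.5% of all genes, 38.3% in all), with a median of 0.36 against 0.02 over all genes. The largest differences were 1.22 ± 0.14 for ERO1A (adjusted p = 6.14e-05), 1.12 ± 0.19 for DERL1 (0.000727), 0.99 ± 0.11 for PDIA4 (5.73e-05) and 0.81 ± 0.13 for HYOU1 (0.000602). The 3 smaller effects were DERL3 at -0.73 ± 0.25, ERP29 at -0.50 ± 0.10 and SSR2 at -0.33 ± 0.11. MANF, SDF2L1 and the sensors were not called (MANF 0.20 ± 0.11, SDF2L1 0.03 ± 0.18, adjusted p = 0.181 and 0.916). By role, 6 of 8 disulfide genes, 5 of 9 HSP70 and HSP90 genes, 5 of 10 ERAD genes and 2 of 7 translocation genes had the larger effect at 48 h, against 19.7% of all genes. It was smaller for 1 disulfide, 1 ERAD and 1 translocation gene, against 18.5% of all genes. No gene of the other roles was called.

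The other genes of the pathway, a list of 74 of which 69 were measured, were described in the same way. In vehicle 44 of the 69 rose and 8 fell (21.9% and 31% of all genes), with a median of 0.44. With Di at 12 h, 7 of the 69 rose and 9 fell (3.9% and 9.8% of all genes). With Di at 48 h, 35 rose and 8 fell (22.9% and 28% of all genes), with a median of 0.22. The PERK and ATF4 arm rose in vehicle in 11 of 11 genes (median 2.13) and with Di in 4 of 11 at 12 h and 9 of 11 at 48 h. ATF4, the transcription factor of this arm, had a level of 11.35 ± 0.11 (SD, n = 3) in the 12 h controls, 11.56 ± 0.05 after 12 h of Di, 13.01 ± 0.01 in the 48 h controls and 13.23 ± 0.06 after 48 h of Di. DDIT3 (CHOP), a factor that promotes cell death, had levels of 7.43 ± 0.06, 7.99 ± 0.17, 12.68 ± 0.16 and 12.96 ± 0.09 in the same order. Its vehicle rise was 5.25, and Di added 0.56 at 12 h and 0.28 at 48 h (adjusted p = 0.00712 and 0.0392). TRIB3, a pseudokinase induced by ATF4 and CHOP, rose by 2.22 in vehicle and by 0.44 and 0.40 with Di.

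Larger Di effects at 48 h than those of any member were seen for ATF3, a stress-induced factor, at 3.08 (adjusted p = 3.46e-06), and for PPP1R15A (GADD34), which reverses the translational block of PERK, at 1.94 (adjusted p = 2.20e-06). PPP1R15A had levels of 5.86 ± 0.02 in the 12 h controls, 6.04 ± 0.44 after 12 h of Di, 7.62 ± 0.05 in the 48 h controls and 9.56 ± 0.06 after 48 h of Di. ATF3 and PPP1R15A also answer to stress signals outside the ER. NUPR1 rose by 0.80 with Di at 12 h (adjusted p = 0.0163), from a control mean of 3.84 ± 0.28 that lies under the filter level. Among genes called lower with Di, the largest falls at 12 h were those of MAN1B1, an ERAD mannosidase (-0.53), and SEC62, of the translocation channel (-0.49). At 48 h they were those of the thioredoxin-like TMX4 (-1.46) and FAM8A1 (-0.53). CHAC1, of the PERK and ATF4 arm, gave -0.72 at 12 h without being called (limma, adjusted p = 0.129), from a control mean of 4.05 near the filter level. The other 17 ERAD genes listed, of which 16 were measured, had a vehicle median of 0.01, with 6 higher and 6 lower. The 10 measured ERAD members had a median of 1.07, with 10 higher. Of all genes tested, 21.9% were higher and 31% lower in vehicle.

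Several probe sets were kept for 28 members, which gave 56 further readings of the same genes. In vehicle over time, 52 of the 52 further probe sets of called members had the sign of the one used and 49 were called the same way. For Di at 48 h, 27 of 34 had the same sign, 20 were called the same way and 4 were called the opposite way. DERL1, PDIA3, PDIA4, PDIA6 and CANX gave Di rises on every probe set, whereas ERO1A, ERP44, DERL2, SSR3 and XBP1 had at least 1 set with a difference below 0. At 12 h, of 3 further sets of called members 2 were called the same way and 1 the opposite way, all of DNAJC3. Members not called at 12 h also had sets that were called: higher for HSPA5, SEL1L, SSR3 and ERO1A, lower for ATF6 and P4HB, and in both directions for SSR1 and SEC63. Whether these probe sets report different transcripts of a gene was not tested.

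**Figure D5:**
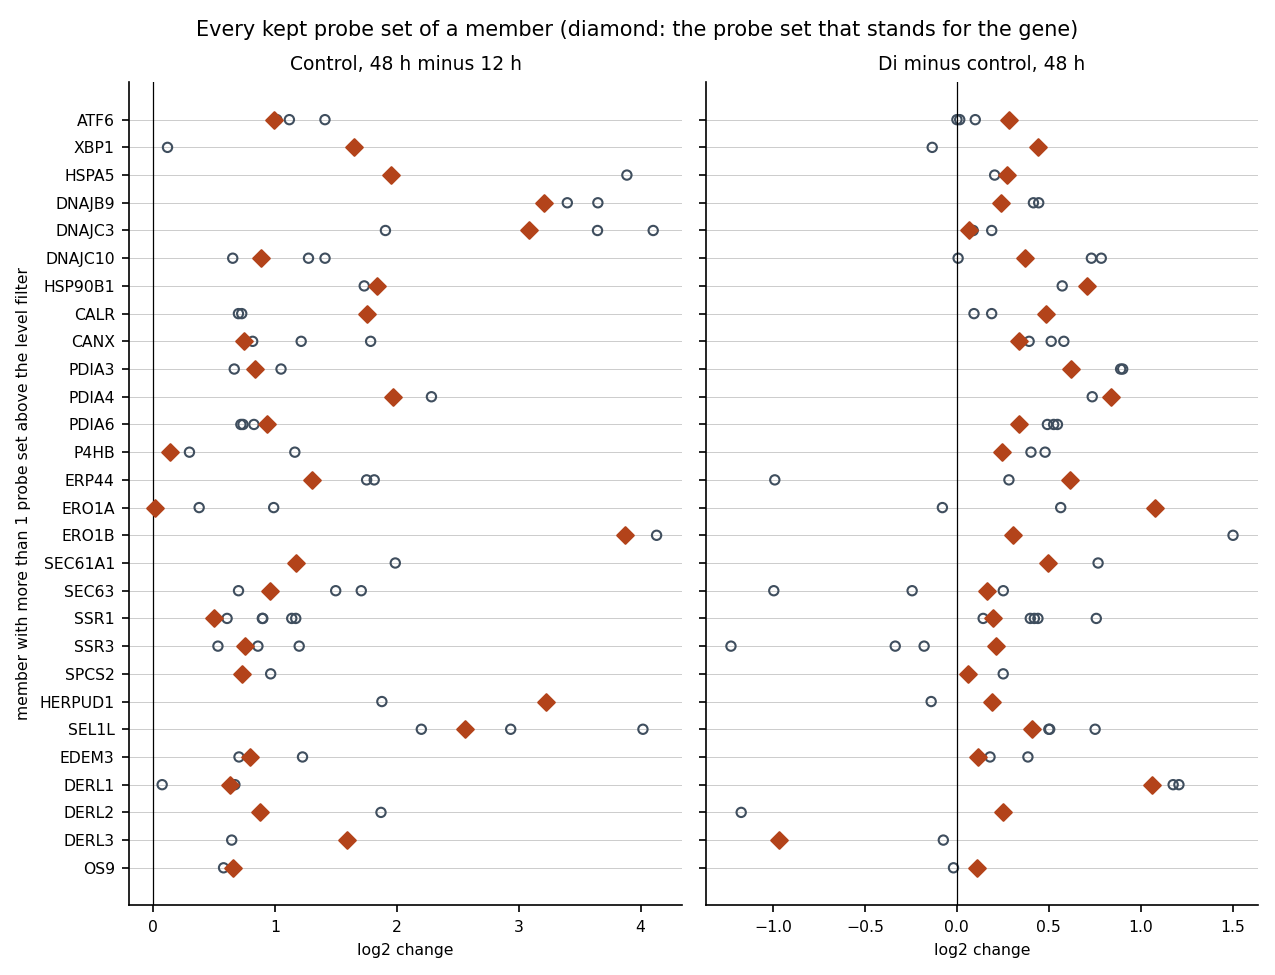
Log2 change (x axis) on every kept probe set of the 28 members with more than 1 (y axis); the diamond is the probe set that stands for the gene and circles are the others. In vehicle (left) no point lies below 0, whereas for Di at 48 h (right) ERP44, DERL2, SEC63 and SSR3 have points near or below -1 beside a diamond above 0.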

How the data were processed

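RNA from 12 HK-2 cultures (4 groups of 3) was hybridised to Affymetrix arrays. The authors deposited log2 expression values for 54675 probe sets, which the submitters' processing notes link to GCRMA, a background correction and normalisation across arrays; its version is not given in the sources used here. GCRMA pulls low signals together, so changes near the level filter are uncertain in size. Probe sets were named through the platform's annotation, with symbols updated through RefSeq: 41097 had 1 symbol, 1801 several and 11777 none. Control probe sets (62) and those with several or no symbols were left out. Probe sets above log2 4 on at least 3 of 12 arrays were kept, and each gene was read from 1 of them, without the _x_at suffix where possible and with the highest mean, which gave 10623 genes.

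The test was limma's moderated linear model (version 3.58.1, R 4.3.3), with 1 mean per group over all arrays (two-sided, Benjamini-Hochberg adjusted over all genes). The procedure was tested on simulated data. Alternatives covered the filter, moderation, normalisation, probe set choice, a replicate block, the arrays fitted and each array left out. Members, lists and tests were chosen with earlier results of these data known, and ERSE-II and 1 centring were added after seeing the data. Genes given with every array's value were, by rule, the 6 largest called changes in each direction for Di at each time, the 4 largest in vehicle and in the test between times, and HSPA5, HSP90B1, XBP1, HERPUD1, DNAJB9, ERN1, ATF6 and EIF2AK3. Of the other pathway genes, the 2 largest in each direction per Di comparison, ATF4, DDIT3, TRIB3 and PPP1R15A were named. The number of arrays limits the precision. Motifs were counted with Python 3.11.15 in RefSeq promoters.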

Additional observations from a re-analysis of the deposited data

Results flagged for a closer look

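The Di effect differed between 12 h and 48 h for 21 members (limma, adjusted p under 0.05), given here as the 48 h effect minus the 12 h effect on the log2 scale. Disulfide genes with a larger effect at 48 h were ERO1A (1.22), PDIA4 (0.99), PDIA3 (0.78), P4HB (0.51), ERP44 (0.47) and PDIA6 (0.36). Chaperone genes of this kind were HYOU1 (0.81), HSP90B1 (0.75), DNAJB11 (0.65), SIL1 (0.62) and DNAJC10 (0.55). In ERAD the larger effects at 48 h were those of DERL1 (1.12), SELENOS (0.54), SEL1L (0.53), EDEM1 (0.38) and OS9 (0.36), and in translocation SEC61A1 (0.68) and SEC63 (0.40). The effect was smaller at 48 h for SSR2 (-0.33), ERP29 (-0.50) and DERL3 (-0.73). For P4HB, PDIA3, PDIA4 and DNAJC10 the Di arrays lay below the controls at 12 h and above them at 48 h. Their 12 h differences (-0.27, -0.16, -0.15 and -0.18) were not called. For ERP29 the Di arrays lay above the controls at 12 h and below them at 48 h, by 0.13 (not called) and -0.38. Near the threshold, the call was lost without any of 10 arrays for OS9 (0.30 to 0.40, adjusted p = 0.0516 to 0.107), 8 for EDEM1 (0.31 to 0.40, 0.0566 to 0.0852), 8 for PDIA6 (0.29 to 0.37, 0.0517 to 0.0760), 6 for SEC63 (0.34 to 0.40, 0.0530 to 0.0726), 8 for SSR2 (-0.34 to -0.28, 0.0530 to 0.0813) and 6 for DERL3 (-0.69 to -0.57, 0.0662 to 0.0856); the other 15 kept their calls with each array left out. Averaging all kept probe sets of a gene brought the difference to 0.36 for ERO1A, -0.15 for ERP44, -0.03 for SEC63 and 0.07 for SEL1L, and ended the call for DERL3 (-0.45) and OS9 (0.29).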

How the results depend on the processing

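Counts of members called moved as follows. At 12 h, members higher with Di numbered 7 with a level filter of 6, 7 with trended and robust moderation and 1 in a fit of the 12 h arrays alone, against 4. Members lower numbered 1 without a filter, 1 with trended moderation and 1 with all kept probe sets averaged, against 0. All genes called in either direction moved as well, from 1455 of 10623 to 1548 of 8750 with the filter of 6. They numbered 1621 of 10623 with trended moderation and 575 with the 12 h arrays alone. Without a filter they were 1238 of 19752, and with probe sets averaged 1354 of 10623. At 48 h, members lower with Di numbered 5 with all kept probe sets averaged, against 2 (5483 and 5412 of all genes called in either direction). The replicate block left 3 higher and 0 lower at 12 h, 24 and 2 at 48 h and 41 and 0 in vehicle. With the block, 1003, 5075 and 5257 of all genes were called in these comparisons. For the difference between the times it left 15 larger and 1 smaller, against 18 and 3 (3643 of all genes called, against 4065). Replicate numbers did not pair the arrays: correlations of same-numbered deviations ran from -0.264 to 0.154. With each array left out in turn, 1 to 5 members were higher and 0 to 2 lower at 12 h, with 745 to 1457 of all genes called. For the difference between the times 1 to 4 members were smaller, with 3554 to 4417 of all genes called. Over every setting, 22 to 30 members were higher with Di at 48 h, 40 to 43 in vehicle, and 14 to 20 had a larger Di effect at 48 h. In these comparisons 4734 to 5899, 4848 to 6155 and 3554 to 4417 of all genes were called in either direction, with 8750 to 19752 tested. Averaging all kept probe sets turned the sign of called 48 h Di changes in DERL2 (-0.46), SSR3 (-0.38) and ERP44 (-0.03), brought the XBP1 change to 0.15, and moved the vehicle change of HSPA5 to 2.92, HERPUD1 to 2.55, CALR to 1.06 and XBP1 to 0.89. The cause of these moves was not tested. Signal near the level filter limits DERL3 and ERO1B.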

Other observations

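Subunits of one machine in the wider pathway list did not always move together; these sets were picked after their values were seen. Of the signal peptidase, SPCS3 fell by 1.52 on the log2 scale in vehicle from 12 h to 48 h (adjusted p = 3.24e-08), while SEC11C rose by 1.93 (adjusted p = 9.05e-08), SPCS1 by 0.20, SEC11A by 0.25 and SPCS2 by 0.73. SPCS3 had a level of 9.78 ± 0.13 (SD, n = 3) in the 12 h controls and 8.26 ± 0.01 in the 48 h controls, without overlap. The ATPase VCP, which pulls ERAD substrates from the membrane, and its adaptors UFD1 and NPLOC4 changed by -0.38, -0.37 and -0.47 in vehicle, all called lower, over the interval in which the 10 ERAD members rose. With Di at 48 h, UFD1 and NPLOC4 rose by 0.30 and 0.47 and VCP was not called (0.10, adjusted p = 0.241).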
